A study of Mus musculus with 9 samples.

Results

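The 42 genes of lipoproteins and lipid droplets described here were followed through 9 libraries of polyadenylated RNA from mouse liver. They were taken by symbol from a list of gene names and comprised 14 apolipoproteins, 7 genes of lipoprotein assembly, remodelling and receptors, 10 of droplet coats and droplet fusion, 5 lipases or lipase regulators, 2 acyltransferases of triglyceride synthesis, and 4 genes of fatty acid uptake or lipoprotein lipase control. All 42 had at least 1 count among the 27945 genes with a count, and 41 were among the 18113 genes that passed the filter on low counts. The libraries fell into 3 groups of 3, labelled control, model and treated. Per its title, the series concerns damage to the liver by gefitinib, a drug against the epidermal growth factor receptor kinase. The labels give liver as the tissue of every group and give no strain, sex, age, dose or time. They do not name the agent of the model or treated groups, and the titles speak of liver cells without saying whether cells were isolated. Whether a group's libraries are from different mice is not stated, and p-values then reflect only library-to-library spread, which may be technical.

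The liver packages triglyceride and cholesterol ester with apolipoprotein B into very low density lipoprotein, with the help of a microsomal transfer protein, and secretes it. Small exchangeable apolipoproteins then direct the particles to lipases, transfer enzymes and receptors. Triglyceride that is not secreted is held in cytosolic droplets, whose coat proteins control the access of lipases.

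The estimated counts of a library totalled between 56440871 and 60665156 and covered 20579 to 21441 genes. The 10 hepatocyte markers summed to between 65247 and 100489 CPM (counts scaled to library size) in the 9 libraries. CPM values given here are on library sizes scaled by the trimmed mean of M-values (TMM), whose factors were 0.905 to 0.998 in the control and model libraries and 1.05 to 1.14 in the treated libraries. Differences between the treated and the other groups therefore depend on that scaling. On plain library totals the median log2 fold change of all genes moved from 0.01 to 0.17 in treated versus model and from -0.01 to 0.20 in treated versus control, and the share of called genes that were higher went from 53.9% to 80.1% and from 52.5% to 78.7%. The members' medians moved with it, from -0.19 to -0.02 and from -0.21 to -0.01. A member was called at an adjusted p under 0.05, and the changes below are stated on the TMM scale.

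Levels of different genes were compared in the deposited FPKM, fragments per kilobase of transcript scaled to library size. The length used per gene is not given, and it was not always that of the leading transcript. Apoc4 and Apof had control means of 571 and 574 CPM, and leading transcripts of 538 and 1930 bases with 96.4% and 82.4% of counts. Apoc4 still had the lower control FPKM, 186 against 247. Ranks between members are thus those of the deposited values and may differ per expressed transcript. Of the 42 members, 16 had a mean above 100 FPKM over the 9 libraries, 12 were below 10 FPKM and 2 were below 1 FPKM. Apoa2, which encodes the second most abundant protein of high density lipoprotein, had the highest mean FPKM, at 11692 ± 586 in control, 11169 ± 2183 in model and 8137 ± 482 in treated libraries (SD, n = 3 each). Apoe, the ligand of lipoprotein receptors for remnant particles, followed with 8081 ± 916, 8174 ± 570 and 6699 ± 257 FPKM. Apoa1, the main protein of high density lipoprotein, had 6241 ± 584, 6470 ± 401 and 6697 ± 489 FPKM. In the treated group the deposited FPKM of Apoe and Apoa1 thus differed by less than the spread between libraries. This need not hold per expressed transcript. Their treated means were 14826 ± 1061 and 8569 ± 838 CPM, and their leading transcripts have 1408 and 1035 bases with 80.6% and 99.3% of counts. Apoc1 came next, with 2951 ± 386, 2772 ± 386 and 2243 ± 141 FPKM. Apoh and Apoc3 followed and had 1428 ± 106 and 1319 ± 124 FPKM in the control libraries, which overlapped within their SD. By deposited FPKM the 4 next in rank were Apoa5, Apof, Lcat and Apob. In the control libraries they had 475 ± 115, 247 ± 40, 290 ± 22 and 215 ± 11.2 FPKM, and Apof lay within these SDs of both Lcat and Apob. Apoc4 was at rank 13 and could stand higher per length of its leading transcript.

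**Figure D1:**
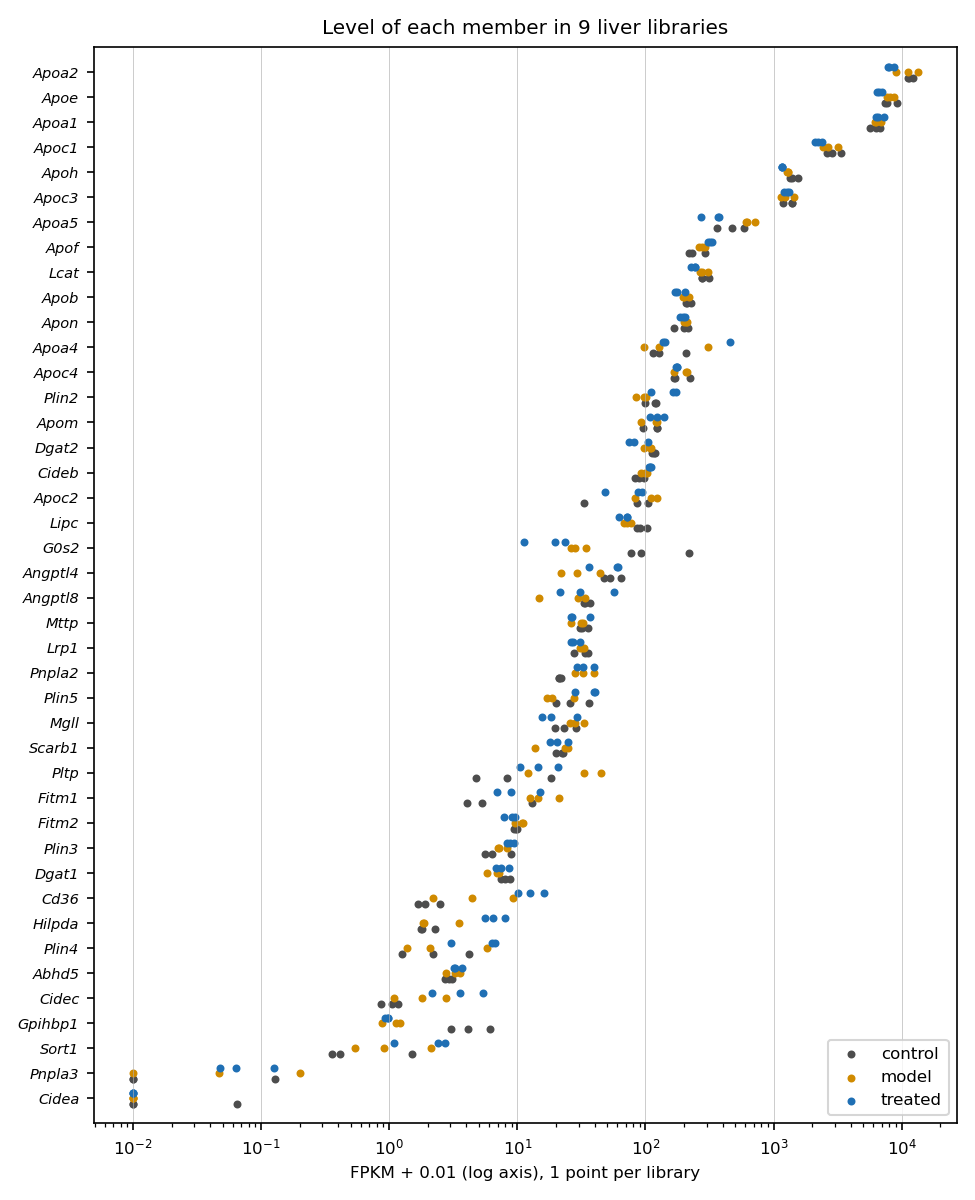
FPKM plus 0.01 on a log axis for each of the 42 genes, 1 point per library, ordered by the mean over 9 libraries. Apolipoproteins fill the top of the order, led by Apoa2, Apoe and Apoa1, while Pnpla3 and Cidea sit at the bottom.

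The 14 apolipoproteins made up 7.65%, 6.78% and 7.94% of the summed FPKM of all genes in the control libraries. They made up 8.36%, 7.61% and 6.68% in the model libraries and 6.63%, 6.52% and 6.46% in the treated libraries. Each treated library thus lay below each library of the other groups, and the means were 7.46% ± 0.602, 7.55% ± 0.841 and 6.54% ± 0.0829 (SD, n = 3 each). This share is of a sum over members and was given no test. It rests on the deposited gene lengths. As a share of counts the means were 4.90%, 4.92% and 4.19%.

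At the low end, Cidea, a droplet fusion protein of brown fat, was at 0 counts in 8 libraries and had 4 counts in control replicate 3. It was the 1 member that failed the filter. A count of 0 allows up to 3 counts, or 0.0495 to 0.0532 CPM on plain library totals, as a limit of counting error alone. Pnpla3, a droplet-bound lipase relative, had no count in 3 libraries and at most 21 counts in any library. Neither can show a change at this depth.

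In model compared with control livers the member set had a single call, the fall of Gpihbp1. Over all genes tested 1.12% were called, 0.519% higher and 0.596% lower, so 1 of 41 members (2.44%) is a share near the background. At an unadjusted p under 0.05 there were 8 members. The median log2 fold change of the members was 0.01, beside -0.00091 for all genes, and the libraries did not overlap between the groups for 2 members that were higher and 7 that were lower, where 9.71% and 10.2% of all genes did so.

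Gpihbp1 encodes the protein that anchors lipoprotein lipase to the wall of capillaries. It measured 12.3, 9.65 and 18.9 CPM in the control libraries and 2.70, 3.53 and 3.36 CPM in the model libraries. Every model library lay below every control library, and the gene fell 4.26-fold (log2 fold change -2.09, SE 0.25, adjusted p = 0.0068). The treated libraries measured 2.49, 2.58 and 2.49 CPM, 5.40-fold below control (log2 fold change -2.43, SE 0.26, adjusted p = 0.000165), and against model the adjusted p was 0.45. Both calls held in each of the 16 alternatives tried, with a highest adjusted p of 0.0300 and 0.00112.

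Markers of liver endothelium were also lower in the model and treated libraries. The 10 markers summed to 296 to 382 CPM in control, 125 to 149 CPM in model and 68.6 to 105 CPM in treated libraries. Of the 10, 6 fell in model versus control and 10 in treated versus control. In treated versus model 5 of 10 fell, whereas Gpihbp1 was not called (adjusted p = 0.45). Of all genes, 0.596%, 8.47% and 4.44% were called lower in these comparisons. Pecam1, an endothelial adhesion molecule, measured 15.9, 13.3 and 18.0 CPM in control, 5.42, 5.88 and 4.80 CPM in model and 4.80, 3.80 and 4.16 CPM in treated libraries. Markers of hepatic stellate cells were lower too, with sums of 365 to 436 CPM in control, 257 to 283 CPM in model and 247 to 322 CPM in treated libraries. None of these 10 was called in model versus control, where 7 had separated groups with model lower, and 5 fell in treated versus control. The part of the endothelial or stellate markers in the result for Gpihbp1 was not tested. In bulk RNA, fewer cells of a type and less RNA per cell cannot be told apart.

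Other members with separated groups in this comparison did not pass the test. G0s2, an inhibitor of adipose triglyceride lipase, measured 77.7, 101 and 228 CPM in control and 36.4, 28.0 and 26.4 CPM in model libraries, a log2 fold change of -2.16 (SE 0.45, adjusted p = 0.0845). Pnpla2, that lipase itself, measured 74.8, 82.6 and 76.6 CPM in control and 104, 135 and 113 CPM in model libraries, a log2 fold change of 0.59 (SE 0.14, adjusted p = 0.0783). The model libraries all lay below control for the inhibitor and above control for the lipase, but neither difference was called by edgeR. DESeq2, which called 871 genes here against 202, called both, together with Lipc and Angptl4. Angptl4, a secreted inhibitor of lipoprotein lipase, measured 196, 232 and 273 CPM in control and 93.8, 178 and 119 CPM in model libraries (log2 fold change -0.85, SE 0.28, adjusted p = 0.216). Dgat1, an acyltransferase of triglyceride synthesis, stood at 29.8 ± 2.81 and 23.7 ± 2.76 CPM (adjusted p = 0.276).

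**Figure D2:**
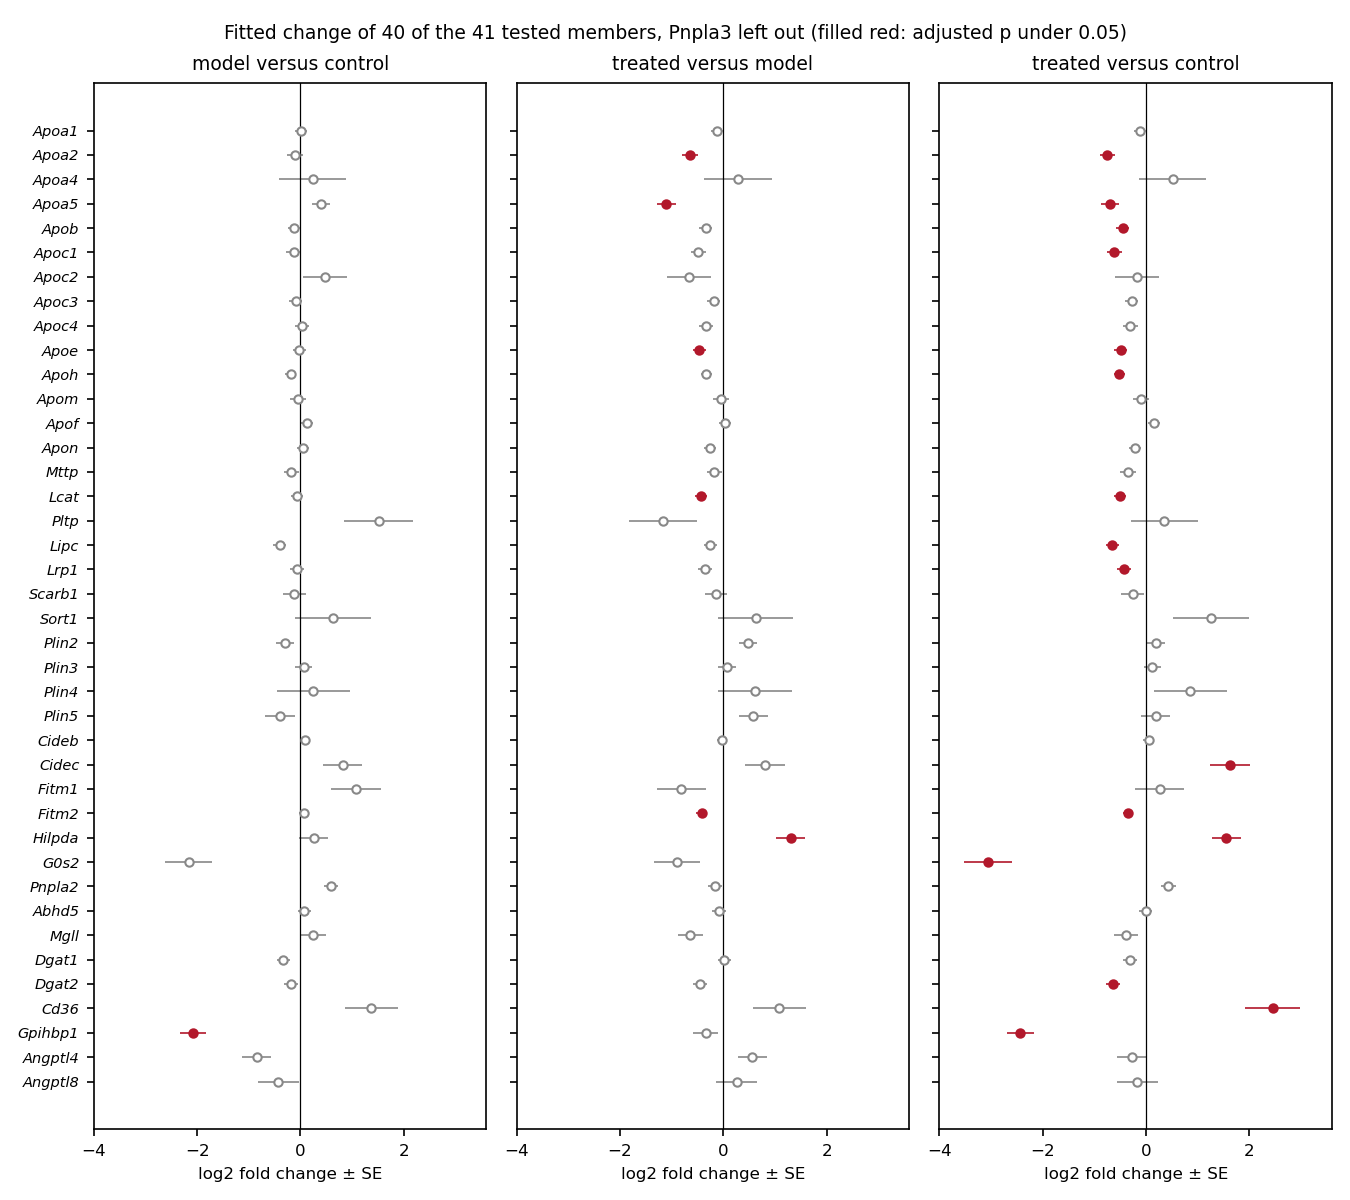
Fitted log2 fold change ± SE of 40 tested members in the 3 comparisons, with called members in filled red; Pnpla3 is left out because its SE was 1.67 to 1.71. In model versus control the filled point is Gpihbp1, and in treated versus control 13 filled points lie left of 0 and 3 lie right of it.

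In treated compared with model livers 5 members fell, namely Apoa5, Apoa2, Apoe, Lcat and Fitm2, and 1 rose, Hilpda. These 6 are 14.6% of the 41 members tested, and 9.65% of all genes were called, 5.21% higher and 4.44% lower. At an unadjusted p under 0.05 there were 15. Treated against control, 13 members fell and 3 rose, 39.0% of the members tested, where 17.8% of all genes were called, 9.36% higher and 8.47% lower, and 19 members had an unadjusted p under 0.05. Groups did not overlap for 16 members that were lower and 4 that were higher against control, where 18% and 19.3% of all genes did so. Against model these were 15 lower and 1 higher, with 15% and 16.2% of all genes. Both comparisons use the same treated libraries, so their lists are not independent. With 1 library left out, 1 to 5 members were called against model and 8 to 16 against control, in both cases fewest without treated replicate 1. Without model replicate 1, a library with muscle transcripts described below, Apoa5 and Cd36 were the 2 members called against model.

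Among the 14 apolipoproteins, 3 fell in treated versus model and 6 in treated versus control. These were 21.4% and 42.9% of the 14, where 4.44% and 8.47% of all genes were called lower. None of the 14 was called higher in either comparison on the TMM scale. On plain library totals 1 of them, Apoa5, was called against model and 2, Apoa2 and Apoh, against control, and in the fits of log2 FPKM Apof was called higher against control. Their median log2 fold change was -0.33 and -0.29, beside 0.01 and -0.01 for all genes.

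Apoa2 measured 7148, 7583 and 8007 CPM in control, 8732, 6798 and 5581 CPM in model and 4648, 4415 and 4478 CPM in treated libraries. The treated libraries lay close together and below all others, and Apoa2 fell 1.56-fold against model (log2 fold change -0.64, SE 0.15, adjusted p = 0.0242) and 1.68-fold against control (log2 fold change -0.75, SE 0.15, adjusted p = 0.00655). The call against control held in each of 16 alternatives and that against model was lost in 9. Apoa1, its partner on high density lipoprotein, measured 9784, 8682 and 9413 CPM in control, 9473, 9710 and 8839 CPM in model and 8062, 8109 and 9535 CPM in treated libraries. These overlapped between all groups, with a log2 fold change of -0.12 (SE 0.11) both against model (adjusted p = 0.566) and against control (adjusted p = 0.534). Whether the 2 genes differ in their change was not tested.

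Apoa5, a secreted activator of triglyceride clearance, measured 1731, 1131 and 1451 CPM in control, 1860, 2031 and 1803 CPM in model and 685, 963 and 1005 CPM in treated libraries. Model libraries were the highest and treated libraries the lowest, with no overlap between any of the groups. It fell 2.15-fold against model (log2 fold change -1.10, SE 0.18, adjusted p = 0.00406) and 1.63-fold against control (log2 fold change -0.70, SE 0.18, adjusted p = 0.0206), and the difference of model from control was not called (log2 fold change 0.40, adjusted p = 0.35). The call against model was the 1 member call of that comparison that held in each of 16 alternatives, and the call against control was lost in 8.

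Apoe measured 19319, 19711 and 23503 CPM in control, 22865, 19601 and 18918 CPM in model and 13765, 14825 and 15887 CPM in treated libraries. All treated libraries lay below the others, and Apoe fell 1.38-fold against model (SE of the log2 value 0.13, adjusted p = 0.0412) and 1.41-fold against control (adjusted p = 0.0207). The call against model was lost in 11 of 16 alternatives, each left-out library and plain library totals among them (highest adjusted p = 0.151). Against control it was lost in 7, among them plain library totals and leaving out control replicate 3, treated replicate 1 or treated replicate 2 (highest adjusted p = 0.125). Apoc1, an exchangeable inhibitor of remnant uptake and of lipid transfer, measured 2472, 2442 and 3030 CPM in control, 2896, 2257 and 2102 CPM in model and 1559, 1850 and 1773 CPM in treated libraries. The treated libraries again lay lowest, and Apoc1 fell 1.53-fold against control (log2 fold change -0.62, SE 0.15, adjusted p = 0.0159), and against model the adjusted p was 0.0656. The call was lost in 5 of 16 alternatives, among them leaving out control replicate 3 or treated replicate 1 (highest adjusted p = 0.0711).

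Apoh, a phospholipid-binding plasma glycoprotein, measured 2598, 2670 and 2972 CPM in control, 2533, 2348 and 2328 CPM in model and 1853, 1920 and 1969 CPM in treated libraries. The 3 groups lay in separate ranges, and Apoh fell 1.43-fold against control (log2 fold change -0.52, SE 0.10, adjusted p = 0.00634), kept in each of 16 alternatives, with an adjusted p of 0.0754 against model. Apob, the structural protein of very low density lipoprotein, measured 3404, 3963 and 3486 CPM in control, 3349, 3164 and 3503 CPM in model and 2343, 2979 and 2594 CPM in treated libraries. No treated library reached another group, and Apob fell 1.37-fold against control (log2 fold change -0.46, SE 0.12, adjusted p = 0.026), which was lost in 8 of 16 alternatives, and against model the adjusted p was 0.112.

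The remaining apolipoproteins were not called. Apoc3, an inhibitor of triglyceride clearance, measured 1654, 1489 and 1692 CPM in control, 1797, 1404 and 1337 CPM in model and 1290, 1385 and 1311 CPM in treated libraries (adjusted p = 0.168 against control). Apof, a regulator of lipid transfer, measured 659, 526 and 536 CPM in control, 614, 602 and 656 CPM in model and 597, 645 and 681 CPM in treated libraries, with overlap between all groups. In FPKM, which carries no TMM factor, it stood at 247 ± 40, 277 ± 16.3 and 321 ± 10.4. Apon stood at 420 ± 41.1, 434 ± 25.4 and 362 ± 23.4 CPM, and Apom, the carrier of sphingosine 1-phosphate, at 139 ± 23.0, 134 ± 22.6 and 130 ± 12 CPM. Apoa4 varied most, from 251 to 437 CPM in control, 199 to 681 CPM in model and 249 to 869 CPM in treated libraries, so that 1 library held each of the high values in model and treated.

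Members that lie side by side on a chromosome did not all pass the test together. Within 43.3 kb of chromosome 9 (46228580 to 46271919, GRCm38) lie Apoa1, Apoc3, Apoa4 and Apoa5, of which Apoa5 fell in the treated libraries and the other 3 were not called. Within 27.6 kb of chromosome 7 (19671579 to 19699188) lie Apoc2, Apoc4, Apoc1 and Apoe, of which Apoe and Apoc1 fell against control. Apoc2, the activator of lipoprotein lipase, and Apoc4 were not called, at 72.3 ± 35 and 571 ± 96.8 CPM in control, 101 ± 22.9 and 582 ± 80.2 CPM in model, and 64.0 ± 19.7 and 462 ± 11.9 CPM in treated libraries. An annotated gene, Gm44805, covers both on the same strand, so the split of their counts is uncertain. The 3 together summed to 796 ± 120, 770 ± 123 and 608 ± 38.6 CPM.

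To show the DNA next to the apolipoproteins that fell most firmly, stretches ahead of the transcription starts of Apoa2, Apoh and Apoa5 are printed 5′ to 3′ from the RefSeq promoter table (GRCm38.p6, + strand). Apoa2 and Apoh kept their call against control, and Apoa5 its call against model, in each alternative. Each run is 245 bases long and ends 6 bases before a RefSeq start. Capitals mark the forkhead core TGTTTAC, the E-box CACGTG or the TATA-like run TATAAA.
Apoa2, chr1:171224804-171225048: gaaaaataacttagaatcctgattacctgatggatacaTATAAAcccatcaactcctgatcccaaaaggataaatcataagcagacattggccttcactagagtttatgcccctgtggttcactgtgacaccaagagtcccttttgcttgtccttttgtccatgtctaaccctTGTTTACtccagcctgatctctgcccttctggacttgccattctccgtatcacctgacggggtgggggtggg
Apoh, chr11:108395047-108395291: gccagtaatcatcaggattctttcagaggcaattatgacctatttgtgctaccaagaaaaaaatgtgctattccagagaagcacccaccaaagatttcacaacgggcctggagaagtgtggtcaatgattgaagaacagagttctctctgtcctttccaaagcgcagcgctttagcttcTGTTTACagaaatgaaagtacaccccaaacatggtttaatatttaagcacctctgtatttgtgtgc
Apoa5, chr9:46268358-46268602: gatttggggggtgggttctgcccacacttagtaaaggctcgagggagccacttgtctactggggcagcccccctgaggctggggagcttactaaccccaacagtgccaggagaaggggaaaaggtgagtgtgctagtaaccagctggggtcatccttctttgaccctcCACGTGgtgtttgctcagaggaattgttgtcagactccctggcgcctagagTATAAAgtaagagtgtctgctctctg

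RefSeq promoter windows, from 250 bases before to 50 after a start, were found for 32 of the 42 members. TGTTTAC, the core of forkhead motifs, searched on both strands, occurred in the windows of Apoa2, Apoh, Apoe and Mgll, which is 9.76% of 41 member windows and 3.65% of 32817 windows of all genes. It began at -77 from the start in Apoa2 and at -71 in Apoh. The Apoh start used is the RefSeq start at 108395297, whereas the deposited gene entry starts at 108343354. In Apoe the match, at 19698397 to 19698403, lay at -5 from a RefSeq start inside the gene, which the deposited entry starts at 19699188. CACGTG, an E-box, occurred for Apoa5, Mgll and Plin2 (9.76% of member windows, 7.15% of all windows), for Apoa5 in both of its overlapping windows. RefSeq gives Apoa5 a pair of starts in this stretch, at 46268608 and 46268633, and the E-box began at -82 from the former, used for the printed run, and at -107 from the latter, which is the start in the deposited files. TATAAA occurred for 6 members (17.1% and 13.6% of windows) and began at -212 in Apoa2 and at -31 or -56 in Apoa5, by start. TGACGTCA, a cyclic AMP response element, occurred for Pnpla3 (1.79% of all windows). CAAAGTCCA, TCACNCCAC, a glucocorticoid response element and direct repeats of AGGTCA spaced by 1 or 4 bases occurred in no member window. A match is a run of letters and not a measured binding site. In the 250 bases before the start, the 11 apolipoprotein windows had a median GC content of 54%, the 9 droplet coat windows 60% and all windows 52.4%.

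Of the 7 genes of assembly, remodelling and receptors, Lcat fell in treated versus model, and Lcat, Lipc and Lrp1 fell in treated versus control. These were 14.3% and 42.9% of the 7, where 4.44% and 8.47% of all genes were called lower. Lcat, which esterifies cholesterol on high density lipoprotein, measured 436, 463 and 510 CPM in control, 504, 420 and 416 CPM in model and 305, 343 and 346 CPM in treated libraries. The treated libraries lay below all others, 1.35-fold below model (log2 fold change -0.43, SE 0.12, adjusted p = 0.0445) and 1.42-fold below control (log2 fold change -0.50, SE 0.12, adjusted p = 0.0145). The call against model was lost in 11 of 16 alternatives, each left-out library among them, and that against control in 4, the fit without treated replicate 1 among them (highest adjusted p = 0.0775).

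Lipc, hepatic lipase, measured 257, 243 and 224 CPM in control, 203, 166 and 178 CPM in model and 134, 161 and 166 CPM in treated libraries. Control libraries were the highest throughout, and Lipc fell 1.57-fold in treated versus control (log2 fold change -0.65, SE 0.12, adjusted p = 0.00413), which held in each of 16 alternatives. Against control the model group had a log2 fold change of -0.40 (adjusted p = 0.151). Lrp1, a large endocytic receptor for remnants, measured 574, 752 and 758 CPM in control, 663, 667 and 651 CPM in model and 462, 573 and 512 CPM in treated libraries. The highest treated and the lowest control library nearly touched, and Lrp1 fell 1.35-fold against control (log2 fold change -0.43, SE 0.13, adjusted p = 0.0455), lost in 9 of 16 alternatives.

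Mttp, the microsomal transfer protein that loads Apob with lipid, stood at 246 ± 26.4, 218 ± 18.2 and 193 ± 40.7 CPM and was not called (adjusted p = 0.143 in treated versus control). Scarb1, the receptor for high density lipoprotein, stood at 223 ± 18.2, 205 ± 63.5 and 186 ± 35.5 CPM, and Sort1, a sorting receptor, at 6.72 ± 5.58, 10.4 ± 7.19 and 16.1 ± 6.91 CPM. Pltp, the phospholipid transfer protein, ranged from 15.3 to 54.6 CPM in control and 35 to 141 CPM in model libraries (adjusted p = 0.384), and it overlaps Ctsa on the opposite strand.

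**Figure D3:**
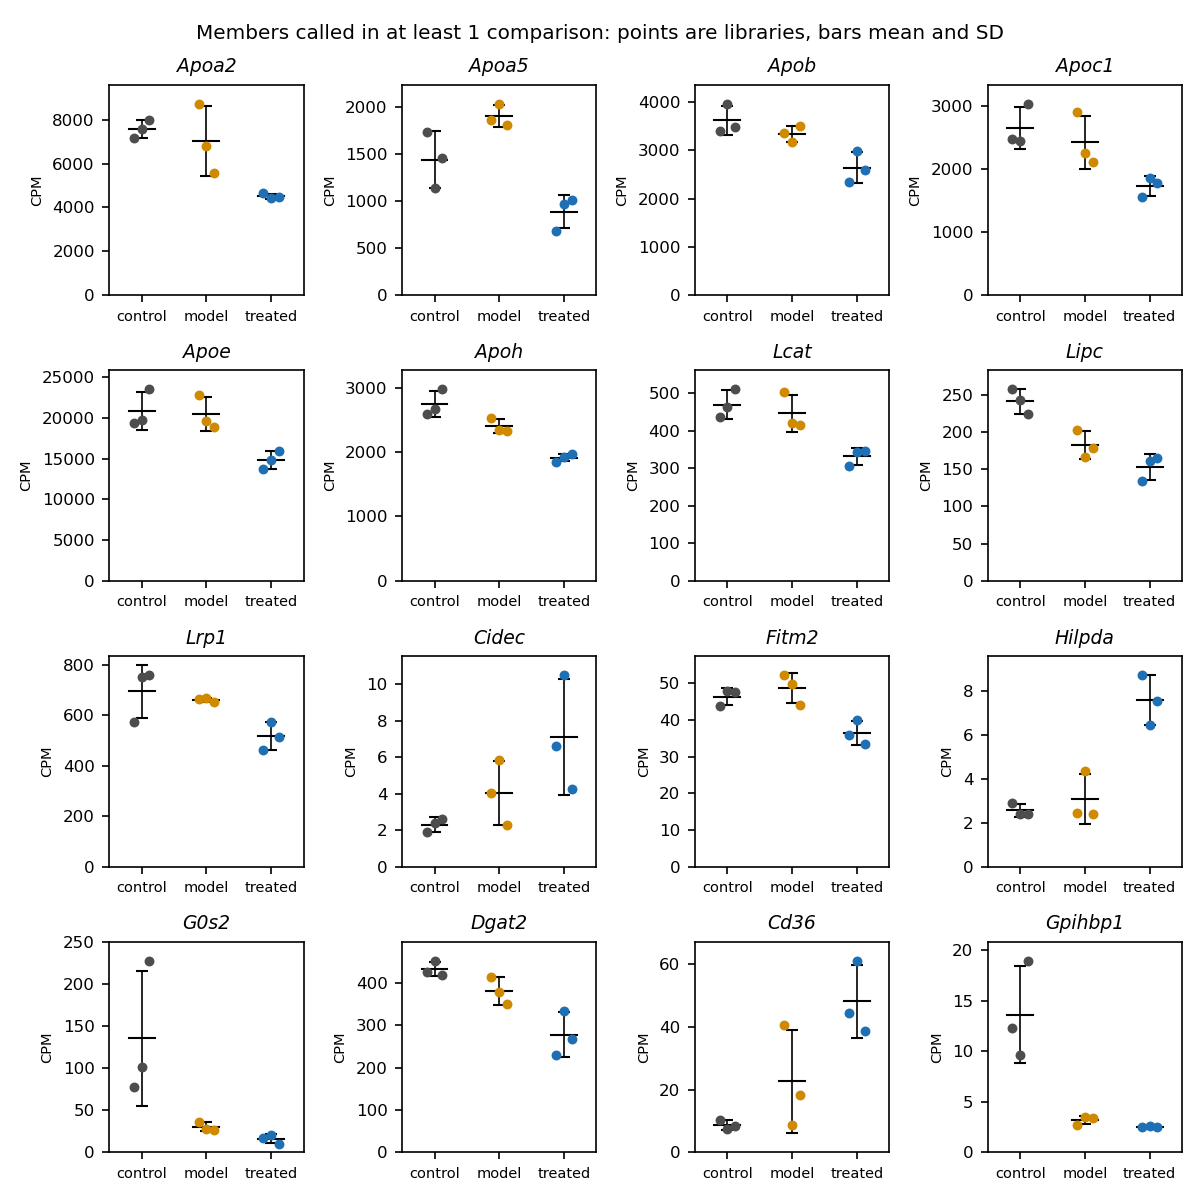
CPM by library for the 16 members called in at least 1 comparison, with bars for the mean and SD of 3 libraries and axes from 0. Apoa2, Apoa5, Apoe and Lcat are lowest in the treated libraries, Hilpda is highest there, and Gpihbp1 is low in both model and treated libraries.

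Droplet proteins went both ways. Of the 9 tested, Hilpda rose and Fitm2 fell in treated versus model, and Hilpda and Cidec rose and Fitm2 fell in treated versus control. These were 22.2% and 33.3% of the 9, where 9.65% and 17.8% of all genes were called. Hilpda, an inhibitor of adipose triglyceride lipase that is induced by hypoxia and by fatty acids, measured 2.91, 2.42 and 2.39 CPM in control, 2.45, 4.38 and 2.38 CPM in model and 8.73, 6.45 and 7.57 CPM in treated libraries. All treated libraries lay above the others, 2.47-fold above model (log2 fold change 1.30, SE 0.27, adjusted p = 0.0141) and 2.94-fold above control (log2 fold change 1.56, SE 0.28, adjusted p = 0.00328). The call against control held in each of 16 alternatives, and that against model was lost without model replicate 1, model replicate 3 or treated replicate 1 (highest adjusted p = 0.0632).

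Cidec, which promotes the fusion of droplets into larger ones, measured 1.88, 2.42 and 2.63 CPM in control, 4.05, 5.83 and 2.31 CPM in model and 6.60, 10.5 and 4.25 CPM in treated libraries. Model libraries overlapped both other groups, which did not overlap each other, and Cidec rose 3.08-fold in treated versus control (log2 fold change 1.62, SE 0.39, adjusted p = 0.0154), but was not called without control replicate 1 or treated replicate 2 (highest adjusted p = 0.0624). Fitm2, an endoplasmic reticulum protein needed for droplet budding, measured 43.6, 47.9 and 47.4 CPM in control, 52.2, 49.8 and 44.1 CPM in model and 35.8, 39.9 and 33.4 CPM in treated libraries. Treated libraries lay below all others, but the falls of Fitm2 were small, 1.34-fold against model (log2 fold change -0.42, SE 0.10, adjusted p = 0.0285) and 1.27-fold against control (log2 fold change -0.35, SE 0.10, adjusted p = 0.0391), and were lost in 7 and 11 of 16 alternatives.

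The perilipins, which coat the droplet surface, were not called in the fit of 9 libraries. Plin2, the main coat protein of hepatocyte droplets, measured 404, 517 and 507 CPM in control, 415, 336 and 413 CPM in model and 577, 636 and 411 CPM in treated libraries, with a log2 fold change of 0.48 (SE 0.17, adjusted p = 0.108) in treated versus model. It was called higher there in 5 of 16 alternatives, namely plain library totals, both fits of log2 FPKM, DESeq2 and the fit without treated replicate 3. Plin5, found on droplets of tissues that burn fat, stood at 68.9 ± 21.3, 52.2 ± 16.2 and 78.2 ± 16.8 CPM, and Plin3 at 31.8 ± 9.06, 33.1 ± 3.08 and 34.6 ± 2.79 CPM. Cideb, the hepatocyte member of its family, was level at 162 ± 10.5, 171 ± 10.1 and 167 ± 7.33 CPM, and each of its groups overlapped.

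Plin4 and Fitm1, a pair also expressed in skeletal muscle, were measured beside muscle transcripts. Plin4 measured 9.17, 17.4 and 32.0 CPM in control, 44.5, 14.9 and 10 CPM in model and 19.2, 44.4 and 42.7 CPM in treated libraries. Fitm1 measured 14.8, 6.46 and 4.72 CPM in control, 24.9, 13.8 and 16.1 CPM in model and 6.69, 15.3 and 9.19 CPM in treated libraries. The highest model value of each was in model replicate 1, where the 10 skeletal muscle markers summed to 169 CPM. These markers summed to 146, 114 and 119 CPM in the treated libraries and to no more than 1.27 CPM elsewhere. Treated replicate 1, with the highest of the treated sums, had the lowest treated value of both Plin4 and Fitm1, each within the control range. Acta1, skeletal actin, measured 27.6 CPM in model replicate 1 and 16.1 to 24.9 CPM in the treated libraries, and Ckm, muscle creatine kinase, 13.5 CPM and 9.04 to 11.7 CPM. Their part in the values of Plin4 and Fitm1 was not tested. Of the 10 adipocyte markers 8 had a count and 4 were tested, and their sum was 22.3 to 57.2 CPM per library. Defining markers were near 0, with Plin1 at most at 0.115 CPM in any library and Adipoq at 0 in every model and treated library and at most 0.346 CPM in control. Nearly all of the sum came from Adrb3 (0.176 to 33.8 CPM), Lipe (6.88 to 18.9 CPM) and Fabp4 (4.50 to 15.9 CPM), of which Fabp4 rose and Lipe fell in the treated libraries.

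Among lipases and their regulators, G0s2 fell. It measured 17.0, 21.3 and 10.4 CPM in the treated libraries, below every library of the other groups, and fell 8.33-fold against control (log2 fold change -3.06, SE 0.47, adjusted p = 0.00506). The call held in each of 16 alternatives, and against model the adjusted p was 0.274. Control replicate 3 held the highest control value, 228 CPM, and without it the log2 fold change of G0s2 (treated versus control) was -2.46. Pnpla2, the lipase that G0s2 and Hilpda inhibit, measured 97.0, 92.1 and 127 CPM in the treated libraries (log2 fold change 0.43, SE 0.14, adjusted p = 0.0537 against control), all above control, and it was called in 7 of 16 alternatives, plain library totals and DESeq2 among them. Abhd5, its coactivator, stood at 21 ± 0.547, 22.1 ± 3.10 and 20.9 ± 1.95 CPM. Mgll, which splits monoglyceride, stood at 146 ± 24.7, 173 ± 29.7 and 111 ± 39.3 CPM (adjusted p = 0.138 in treated versus model).

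Dgat2, the acyltransferase that makes triglyceride from newly made fatty acids, measured 426, 452 and 420 CPM in control, 415, 379 and 350 CPM in model and 230, 335 and 269 CPM in treated libraries. The 3 groups lay in separate ranges, and it fell 1.56-fold against control (log2 fold change -0.64, SE 0.14, adjusted p = 0.00969), a call that held in each of 16 alternatives. Against model the adjusted p was 0.0652. Dgat1 stood at 24.0 ± 2.41 CPM in treated libraries and was not called against control (adjusted p = 0.12).

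Cd36, a fatty acid and scavenger receptor, measured 10.5, 7.5 and 8.28 CPM in control, 40.6, 8.86 and 18.3 CPM in model and 44.5, 60.9 and 38.6 CPM in treated libraries. All treated libraries lay above all control libraries while model replicate 1 lay among the treated ones. Cd36 rose 5.48-fold in treated versus control (log2 fold change 2.46, SE 0.53, adjusted p = 0.0197), but the call was lost without any 1 of the 3 control libraries and without treated replicate 1 or 2 (highest adjusted p = 0.0808). Against model its adjusted p was 0.248. Angptl4 stood at 192 ± 55.6 CPM in treated libraries, and Angptl8, another secreted regulator of lipoprotein lipase, at 36.0 ± 2.53, 26.7 ± 11 and 31.9 ± 14.9 CPM, with neither called.

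Markers of lipid-associated macrophages, which also express Cd36 and Apoe, were higher in the treated libraries. The 10 markers summed to 126 to 248 CPM in control, 191 to 300 CPM in model and 1032 to 1181 CPM in treated libraries. Of the 10, 5 rose in model versus control, Gpnmb among them, 7 in treated versus model and 8 in treated versus control. Of all genes, 0.519%, 5.21% and 9.36% were called higher in these comparisons. Gpnmb, a glycoprotein of such cells, measured 265, 316 and 182 CPM in treated libraries and at most 10.1 CPM in any other. The 10 general macrophage markers summed to 200 to 333, 269 to 355 and 300 to 561 CPM. The muscle markers above were high in the 4 libraries with the highest Cd36. In model replicate 1, which is among them, the lipid-associated macrophage markers summed to 191 CPM, the lowest of the model libraries. The part of the muscle or macrophage markers in the values of Cd36 was not tested.

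**Figure D4:**
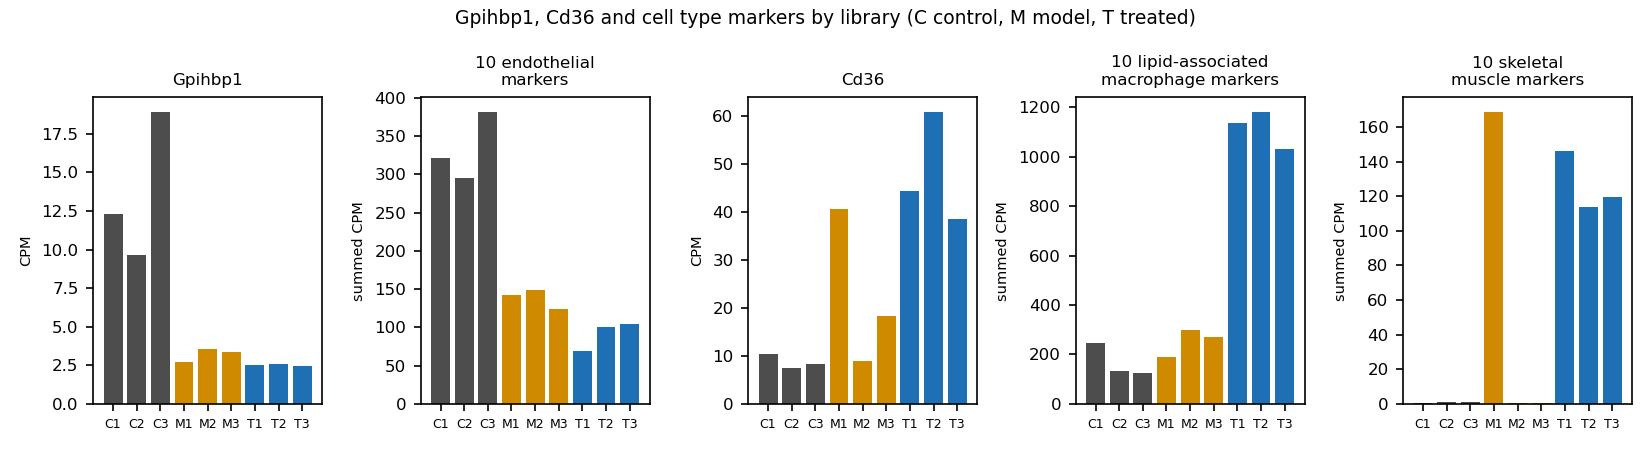
CPM of Gpihbp1 and Cd36 and summed CPM of 3 marker lists, 1 bar per library from 0. Gpihbp1 and the endothelial sum are highest in the 3 control libraries, and Cd36, like the muscle sum, is highest in model replicate 1 and the 3 treated libraries.

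Among the 10 hepatocyte markers, none was called higher. In treated versus model 2 fell and in treated versus control 6, where 4.44% and 8.47% of all genes did so. Tat, tyrosine aminotransferase, went against the others, at 790 to 2051 CPM in treated and 543 to 605 CPM in control libraries, without a call. The sum of the list was 86884 to 100489 CPM in control, 87193 to 91553 CPM in model and 65247 to 82061 CPM in treated libraries. Its part in the falls of the apolipoproteins was not tested.

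The calls of treated versus control differed in how far they rested on the processing. Gpihbp1, G0s2, Hilpda, Apoa2, Apoh, Lipc and Dgat2 were called in each of the 16 alternatives. Apoa5, Apob, Apoc1, Apoe, Fitm2, Lcat and Lrp1 lost their call on plain library totals and in both fits of log2 FPKM, which carry no TMM factor. Each of the 16 kept its sign in every alternative.

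**Figure D5:**
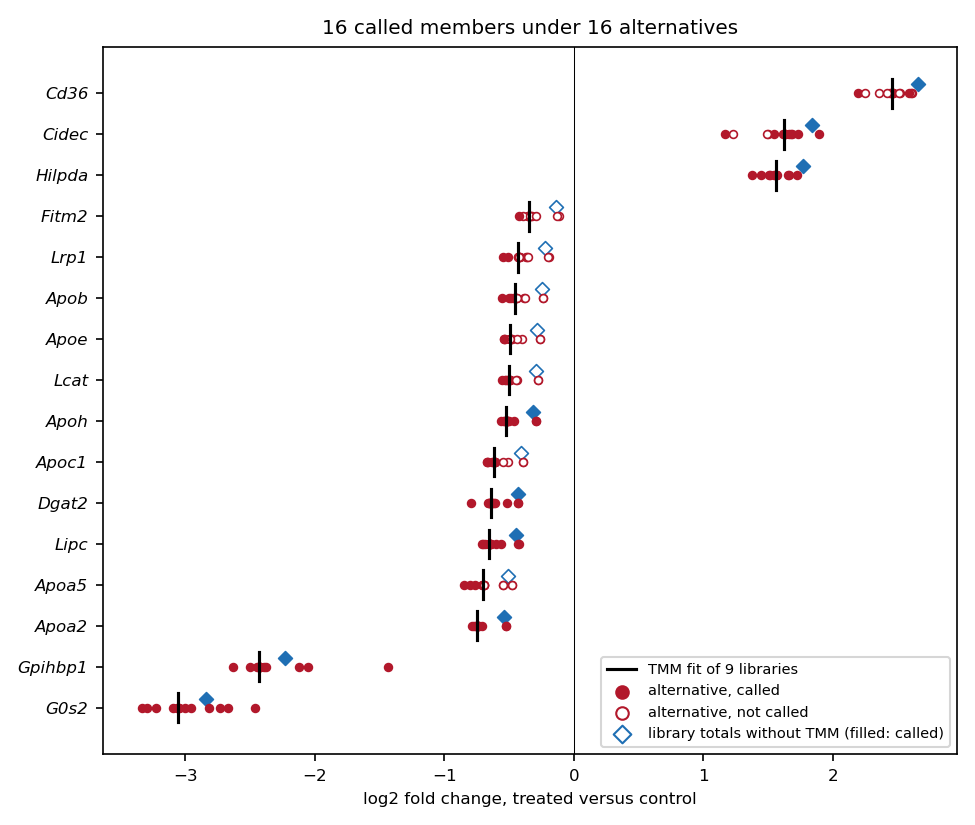
Log2 fold change in treated versus control for the 16 called members under 16 alternatives, with a black bar for the TMM fit and blue diamonds for plain library totals. Open symbols, values that were not called, occur for Fitm2, Lrp1, Apob, Apoe, Lcat, Apoc1, Apoa5, Cidec and Cd36.

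Leading transcripts held at least 90% of the counts of 22 members, and 10 members had 1 transcript listed. Apoh and G0s2 had 1 transcript throughout. Apoa2 was divided between a transcript of 518 bases with 51.3% of its counts and another of 492 bases with 45%, and the first held 49.5% to 52.1% in every library. Gpihbp1 was less clear, since its leading coding transcript held 15.9% to 66.5% by library and a pair of transcripts with retained introns held 14.6% and 10.7% of its counts in all. For Pnpla2 the leading coding transcript held 21.2% to 98.5% by library. A transcript annotated for nonsense-mediated decay held 0% to 69.3%, and 33.9% of the counts in all, so the gene count of Pnpla2 was not all coding message. These shares are estimates from the authors' quantification and carry no error.

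Other genes of the pathway came from lists written for this comparison with earlier results of these data known. Their shares beside those of all genes are therefore not a test. Of 39 other lipoprotein genes tested, 1 rose and 1 fell in model versus control (5.13%, beside 1.12% of all genes). In treated versus model 3 rose and 4 fell (17.9%, beside 9.65%), and in treated versus control 6 rose and 11 fell (43.6%, beside 17.8%). Apobec1, the enzyme that edits the Apob message, rose from 30.7 ± 3.87 to 69.8 ± 8.86 CPM in treated versus model (log2 fold change 1.18, SE 0.18, adjusted p = 0.00353) and from 22 ± 6.02 CPM in control (adjusted p = 0.000288). Abcg1, an exporter of cholesterol to high density lipoprotein, rose 2.31-fold against model (adjusted p = 0.00362) and 2.35-fold against control (adjusted p = 0.00163). Lpl, lipoprotein lipase and also on the macrophage list, rose 2.60-fold against model (adjusted p = 0.043), which 8 of 16 alternatives did not call, each left-out library among them. Abca1, which loads cholesterol onto apolipoprotein A-I, fell 1.57-fold against model (adjusted p = 0.0126). Apol7a and Angptl6 fell 1.95-fold and 1.71-fold there (adjusted p = 0.0166 and 0.0386). Angptl6 lost that call in 10 of 16 alternatives, among them 5 of 6 left-out libraries (highest adjusted p = 0.132), and Abca1 and Apol7a lost theirs without model replicate 3 (adjusted p = 0.0530 and 0.0594). Against control, Angptl6 fell 2.73-fold, Mia3, which helps bulky cargo leave the endoplasmic reticulum, fell 1.56-fold, and Mylip, a ligase that marks the low density lipoprotein receptor for decay, fell 2.90-fold (adjusted p = 0.001, 0.00262 and 0.00074). In model versus control Apol9a rose 2.49-fold (adjusted p = 0.0184) and Mylip fell 2.16-fold (adjusted p = 0.0324), lost in 6 and 8 of 16 alternatives. Apol9a was also higher in treated versus control, 2.90-fold (adjusted p = 0.000906).

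Of 36 other droplet and triglyceride genes tested, none was called in model versus control, near the 1.12% of all genes. In treated versus model 2 rose and 5 fell (19.4%, beside 9.65% of all genes). In treated versus control 3 rose and 11 fell (38.9%, beside 17.8%). Slc27a2, which activates and imports long fatty acids, fell from 1739 ± 116 to 816 ± 136 CPM in treated versus model (log2 fold change -1.09, SE 0.14, adjusted p = 0.00102) and 2.30-fold against control (adjusted p = 0.00029). Acsl1, the main acyl-CoA synthetase of hepatocytes, fell 2.79-fold against control (adjusted p = 0.000303). Lipe, hormone-sensitive lipase, fell 2.23-fold against model and 2.07-fold against control (adjusted p = 0.00122 and 0.00101), and Slc27a5 fell 1.84-fold against model (adjusted p = 0.00445). Fabp4, a fatty acid carrier of adipocytes and macrophages, rose 2.99-fold against model and 2.03-fold against control (adjusted p = 0.000531 and 0.00241). Lpin2, a phosphatidate phosphatase, rose 2.29-fold against model and 1.76-fold against control (adjusted p = 0.00414 and 0.0152). Its call against control was lost without control replicate 2, treated replicate 2 or treated replicate 3 (highest adjusted p = 0.0583). Acsl3, an acyl-CoA synthetase of growing droplets, rose 2.19-fold against control (adjusted p = 0.0332), lost in 5 of 16 alternatives, each of them with a library left out.

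Of 30 transcription factors of lipid genes, none was called in model versus control, near the 1.12% of all genes. In treated versus model 4 rose and 7 fell (36.7%, beside 9.65% of all genes). In treated versus control 3 rose and 9 fell (40%, beside 17.8%). Cebpa, a factor of mature hepatocytes, fell from 320 ± 53.0 to 126 ± 19.5 CPM against model (log2 fold change -1.34, SE 0.15, adjusted p = 0.000521) and 2.13-fold against control (adjusted p = 0.000694). Cebpb, an acute phase factor of the same family, rose 2.33-fold and 2.16-fold (adjusted p = 0.0181 and 0.0158), lost against model without model replicate 1 or model replicate 3 and against control without control replicate 2 (highest adjusted p = 0.0717 and 0.0631). Foxa1 fell 1.70-fold against model (adjusted p = 0.0129, and 0.0543 without model replicate 3) and Foxa2 2.34-fold against control (adjusted p = 0.00124), both forkhead factors of liver. Not all factors of liver fell. Hnf4a was called higher against model, at 546, 463 and 496 CPM in model and 634, 689 and 636 CPM in treated libraries. Foxa3 measured 59.2, 60.0 and 46.4 CPM in model and 62.6, 77.8 and 74.0 CPM in treated libraries, without a call. Mlxipl, the carbohydrate response factor, fell 1.95-fold against control (adjusted p = 0.00149), and Nr2f2 fell 2.15-fold against model (adjusted p = 0.00378). Pparg, a factor of fat storage and of macrophages, rose from 2.46 ± 1.74 to 16.4 ± 1.87 CPM against control (adjusted p = 0.00315), and Srebf2, the regulator of sterol genes, rose 1.72-fold (adjusted p = 0.00287). Ppard and Foxo1 rose 1.95-fold and 1.63-fold against model (adjusted p = 0.0314 and 0.0421), lost in 6 and 5 of 16 alternatives.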

How the data were processed

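Reads were aligned with HISAT2, per the submitters' processing notes, which give no version. Which program quantified them, with what strand setting and annotation, is not given in the sources used here. Per the file headers, the authors deposited estimated counts, as whole numbers, and FPKM for genes and transcripts. Since the estimates are not marked by molecule, count limits cover counting error only, and reads of overlapping genes were divided by that estimation. Of 27945 gene IDs, 27859 were in GENCODE M21 (GRCm38), 25083 with the same start and end.

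Estimated counts were tested as deposited with the quasi-likelihood test of edgeR 4.0.16 (R 4.3.3, robust). All 9 libraries entered 1 fit with group as its term, TMM scaling and filterByExpr (minimum count 10, minimum total 15), which left 18113 genes. P-values were adjusted by Benjamini-Hochberg over all of them within each of 3 comparisons. Levels between genes used the deposited FPKM, for which the length taken per gene is not given. Values in every library were printed for each called member and the 10 members with the highest mean FPKM. From each pathway list, up to 3 called genes per direction and comparison with the smallest p were named. Hnf4a and Foxa3 were named in addition. The members and lists were chosen with earlier results of these data known. The summed apolipoprotein share was left without a test. The alternatives were other normalizations and filters, DESeq2 1.42.0, limma 3.58.1 (voom, and log2(FPKM + 1) or log2(FPKM + 0.1)), a replicate block, the 2 groups alone, and each library left out. The procedure was tested on simulated data.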

Additional observations from a re-analysis of the deposited data

How the results depend on the processing

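Counts of calls depended on the tool and on single libraries. In model versus control, 202 genes were called with edgeR, 871 with DESeq2, 119 with limma on log2(FPKM + 1), and 54 to 210 with 1 library left out. In treated versus model 1748 genes were called, 2742 with DESeq2 and 882 to 1291 with 1 library left out, and in treated versus control 3231 genes, 2169 to 2540 with 1 library left out. Members called in model versus control went from 1 to 5 with DESeq2, and stayed at 1 with any library left out. In treated versus model 6 members were called, 12 with DESeq2, 3 on plain library totals, 3 with limma on log2(FPKM + 0.1), and 1 to 5 with 1 library left out, the lowest without treated replicate 1. There were 2 calls without model replicate 1 or model replicate 2, and 3 without model replicate 3 or treated replicate 3. In treated versus control 16 were called, 10 on plain library totals, and 8 to 16 with 1 library left out, with 10 without control replicate 3 and 8 without treated replicate 1. The alternative of plain library totals was chosen after seeing the data, and there 1638 genes were higher and 408 lower in treated versus model, and 3021 and 819 in treated versus control, against 943 and 805, and 1696 and 1535, with TMM. Over 79 gene and comparison pairs and 16 alternatives each, 1081 of 1264 values stayed on their side of the threshold, 157 lost a call, 26 gained one and 0 reversed in sign.

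Replicate numbers were shared between the groups, but the labels do not say that they pair libraries. Deviations of same-numbered libraries correlated at -0.114 to 0.113 over 9 pairs, and those with different numbers at -0.0931 to 0.0996, and 2 of 9 libraries correlated best with their own number, so the numbers were not taken as a pairing. With a replicate block 120, 1245 and 2611 genes and 1, 3 and 11 members were called in the 3 comparisons. Depth limits what can be said of Cidea and Pnpla3.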
